A study of Mus musculus with 78 samples.

Results

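The subunits of respiratory complexes II to V that are encoded in the nucleus were followed through depletion of the transcription factor ZFP143 in mouse embryonic stem cells (mESCs). Members were the protein-coding genes Sdha, Sdhb, Sdhc, Sdhd, Cyc1 and Cycs and all protein-coding genes whose symbols start with Uqcr, Cox4 to Cox8 or Atp5. This rule found 50 gene models among the 55401 genes of each of 3 count tables. They comprised 4 genes of complex II, 9 of complex III, 18 of complex IV, 18 of complex V and Cycs, which encodes cytochrome c. Among them, 2 models share the symbol Atp5o, Atp5s is a member by its symbol only and is not a subunit, and Cox7a2l is known as an assembly factor of supercomplexes. Usmg5, another subunit of complex V, carries an older symbol outside the rule and is not in any count of members. Of the 50 members, 15 had a ZFP143 peak within 2 kb of a transcript start.

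All cells were of 1 engineered E14TG2a line, an mESC line in which the endogenous ZFP143 protein carries an FKBP degron and HA tags. The methods describe homozygous clones picked from sorted single cells and do not say in which clone each library was made. dTAG-V1 at 500 nM removes the tagged protein, and control cells received DMSO, the solvent of dTAG-V1. TT-seq, which sequences RNA labelled with 4-thiouridine for 10 min and so reads ongoing transcription, was made in DMSO cells and after 2 h, 6 h and 24 h of dTAG-V1. RNA-seq of poly(A) RNA was made in DMSO cells and after 24 h, 48 h and 72 h. A further RNA-seq table held cells kept for 24 h in DMSO or dTAG-V1, and the same cells after another 24 h in N2B27 medium with 1 µM retinoic acid (RA) and with DMSO or dTAG-V1 continued, so that the depleted cells with RA had 48 h of dTAG-V1. Every group had 2 libraries, named by the methods as biological replicates. Parental cells without the tag given dTAG-V1, and cells in N2B27 without RA, were not analysed here. In these RNA data an effect of the compound itself or of the medium thus cannot be told apart from that of depletion or RA. The paper reports minimal proteome changes, and none of its mitochondrial phenotypes, in parental cells given dTAG-V1.

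The respiratory chain passes electrons from NADH and succinate to oxygen and stores the energy as a proton gradient. Complex II (succinate dehydrogenase) feeds electrons into the ubiquinone pool, complex III (cytochrome bc1) hands them to cytochrome c, complex IV (cytochrome c oxidase) reduces oxygen, and complex V (ATP synthase) uses the gradient to make ATP. Complexes III, IV and V combine the nuclear-encoded subunits described here with a few encoded by mitochondrial DNA, whereas complex II is encoded in the nucleus alone. ZFP143 is a zinc finger protein that binds promoters close to the transcription start, many of them of housekeeping genes.

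A ZFP143 peak lay near a transcript start of 30% of the 50 members and of 10.4% of 21897 protein-coding genes. By complex, 4 of the 9 genes of complex III had a peak and 3 of the 18 of complex IV. The remaining peaks lay at 2 of the 4 genes of complex II and 6 of the 18 of complex V. All 15 peaks overlapped a transcript start. By fold enrichment over input, the peak of Atp5o was the highest of them at 141, which ranked 29 among the 3189 peaks. Uqcr10 at 102, Atp5j2 at 96.3, Atp5d at 77.9, Atp5mpl at 70.7, Atp5j at 61.2, Cyc1 at 57.2, Cox7c at 55.0, Atp5e at 47.5, Uqcrb at 40.9, Uqcrc2 at 36.9 and Sdhb at 24.4 followed. All of these were above the median of 20.8 over all peaks. Sdha at 13.7, Cox4i1 at 12.1 and Cox7b at 7.84 lay below it. The peaks came from 1 list for DMSO cells, so their heights have no replicate error. Of the members, 26.0% had a CTCF peak in the same window against 19.0% of protein-coding genes.

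The known ZFP143 binding site has parts that read ACTACAA and CCCANNATG, and both were searched on both strands. Only exact matches were counted. Either exact match lay in 41.5% of all ZFP143 peaks and in 33.3% of the member peaks. The paper reports its own motifs of the site in the great majority of peaks. A peak without an exact match may thus still hold the site. ACTACAA lay in 5 of the 15 member peaks (33.3%) and in 20% of all ZFP143 peaks. CCCANNATG lay in 3 of the 15 (20%) and in 27.2% of all peaks. The 3 peaks with both were those of Cox7c, Atp5d and Atp5o, which made 20% against 5.8% of all peaks. Both shares count the parts at any distance and on either strand. In Cox7c they lay on opposite strands, with CCCANNATG at 102 and ACTACAA at -87 bases from the start, and so formed no joined site. In the RefSeq promoters, 300 bases around each start on GRCm38, ACTACAA was found in 4 of the 10 matched members with a peak (40.0%), in 2 of the 25 matched members without one (8.0%) and in 3.45% of all 27025 promoters. No RefSeq promoter was matched by symbol for the other 15 members.

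The 130 bases before the start site of the 5 members with ACTACAA in their peak are shown here with those of Cox7b, the member with the lowest peak. Capitals mark exact ACTACAA and CCCANNATG alone, so that a near match of ACTACAA in Cox7b stays in lower case. Each sequence runs 5′ to 3′ on the strand of the gene. On GRCm38 (mm10) the windows are chr13:86046775-86046904 for Cox7c (minus strand), chr11:4704343-4704472 for Uqcr10 (minus), chr10:80142185-80142314 for Atp5d (plus), chr16:91931688-91931817 for Atp5o (minus), chr16:84835299-84835428 for Atp5j (minus) and chrX:106015570-106015699 for Cox7b (plus). They lie upstream of the start of the transcript used, while other annotated transcripts of Cox7c, Atp5d and Atp5j start further upstream.
Cox7c: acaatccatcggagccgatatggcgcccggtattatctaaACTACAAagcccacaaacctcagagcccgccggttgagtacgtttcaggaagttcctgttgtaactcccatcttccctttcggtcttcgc
Uqcr10: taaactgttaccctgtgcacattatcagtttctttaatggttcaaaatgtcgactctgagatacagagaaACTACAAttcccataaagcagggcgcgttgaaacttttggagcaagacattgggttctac
Atp5d: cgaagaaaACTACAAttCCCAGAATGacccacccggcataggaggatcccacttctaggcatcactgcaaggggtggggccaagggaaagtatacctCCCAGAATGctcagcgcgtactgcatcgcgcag
Atp5o: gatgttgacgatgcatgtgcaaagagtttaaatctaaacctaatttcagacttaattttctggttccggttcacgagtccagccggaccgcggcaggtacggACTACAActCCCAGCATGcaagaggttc
Atp5j: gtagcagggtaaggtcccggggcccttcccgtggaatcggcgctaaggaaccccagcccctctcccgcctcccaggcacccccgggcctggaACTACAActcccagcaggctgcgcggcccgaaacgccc
Cox7b: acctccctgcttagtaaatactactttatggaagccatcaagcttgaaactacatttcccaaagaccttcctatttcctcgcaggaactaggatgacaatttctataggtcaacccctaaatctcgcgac

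Transcription of 9 members was lower in at least 1 TT-seq comparison, and all 9 had a ZFP143 peak, where 4.58% of all genes tested were lower in at least 1. They were Cyc1, Uqcr10, Uqcrb and Uqcrc2 of complex III, Cox7c of complex IV and Atp5d, Atp5j2, Atp5mpl and Atp5o of complex V. A gene was called in TT-seq at an adjusted p under 0.05 (edgeR quasi-likelihood test, Benjamini-Hochberg over all 17870 genes tested) and a log2 change beyond 0.5. After 2 h, 7 of the 46 members tested were lower, where the background was 2.43% of all genes tested. After 6 h and 24 h, 8 were lower, with backgrounds of 2.83% and 4.09%. With TMM scaling, the filter on low counts and no replicate block, edgeR called no member higher at any of the 3 times, with 1, 0 and 1 higher at an unadjusted p under 0.05. DESeq2 called 0, 0 and 1 higher, edgeR without the filter 0, 1 and 1, and the share of all genes called higher was 0.168%, 0.397% and 2.02%. The largest rise of a tested member at 2 h and at 24 h (log2 0.482 and 0.606) was that of the second Atp5o model, which spans several other genes. The 3 times share their DMSO libraries, so they are not independent. None of the 31 tested members without a peak was called lower by edgeR at 2 h, with 1 lower at an unadjusted p under 0.05, and among all protein-coding genes without a peak 0.174% were. Among all protein-coding genes with a peak the share was 17%, against 7 of 15 members. No gene of complex II was called in TT-seq by edgeR, with 0, 1 and 0 lower at an unadjusted p under 0.05.

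**Figure D1:**
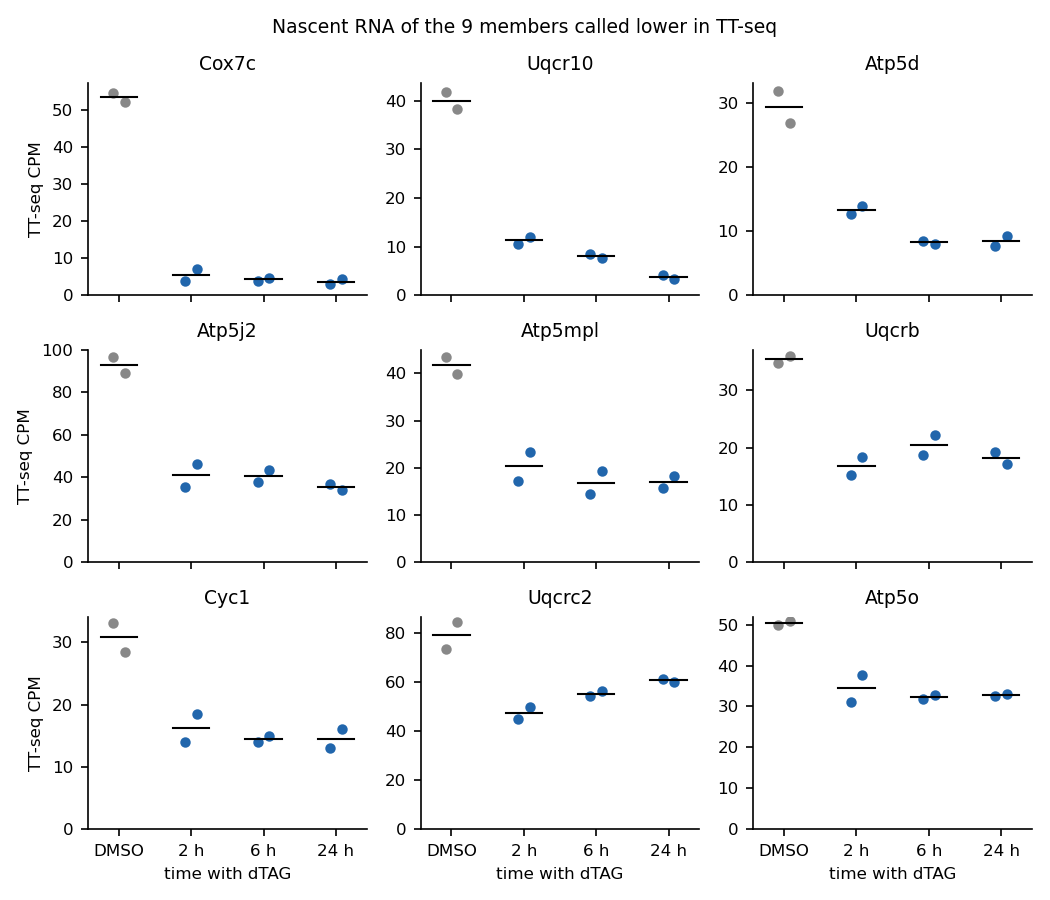
TT-seq values as CPM, counts scaled to a common library total (y axes from 0), for the 9 members called lower, by time with dTAG-V1 (x axes). Points are single libraries and bars the mean of 2. Cox7c had 52.2 to 54.6 CPM in DMSO cells and 3.83 to 6.99 at 2 h, while Uqcrc2 was lowest at 2 h.

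The lowest member after 2 h was Cox7c, which encodes a small subunit of complex IV. Its TT-seq level was 54.6 and 52.2 CPM in the DMSO libraries, 3.83 and 6.99 at 2 h, then 3.98 and 4.79 by 6 h and 2.95 and 4.41 at 24 h. All depleted libraries lay far below both controls. The log2 change was -3.29 ± 0.30 (SE) at 2 h, with an adjusted p of 0.001, and -3.84 ± 0.31 at 24 h. The annotation places the small gene Gm22574 inside Cox7c on the same strand, and its reads cannot be told apart in gene-body counts.

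In complex III, Uqcr10, which encodes one of its smallest subunits, fell further with time. It had 41.7 and 38.2 CPM in DMSO cells, 10.6 and 12.1 at 2 h, then 8.5 and 7.60 by 6 h and 4.13 and 3.34 at 24 h. Each later pair lay below the earlier one, and the log2 changes were -1.81 ± 0.18, -2.31 ± 0.19 and -3.42 ± 0.21 (adjusted p = 0.0016, 0.00075 and 0.00018, edgeR). Its peak also lies at the start of Zmat5, the gene on the other side, whose log2 changes were -1.93, -2.07 and -3.23.

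Uqcrb, another small subunit of complex III, had 34.9 and 36.0 CPM in DMSO cells and 15.2 and 18.4 at 2 h. All later libraries lay between 17.1 and 22.2 CPM, below the controls. The log2 changes were -1.07 ± 0.17, -0.79 ± 0.17 and -0.97 ± 0.17. Cyc1 encodes cytochrome c1, the subunit that reduces cytochrome c. It had 33.1 and 28.5 CPM in DMSO cells, 13.9 and 18.6 at 2 h, then 14.0 and 15.0 by 6 h and 13.0 and 16.0 at 24 h. The groups did not overlap, yet the change at 2 h missed the threshold (log2 -0.92 ± 0.20, adjusted p = 0.056, edgeR) and passed it later (-1.09 at 6 h and -1.08 at 24 h, adjusted p = 0.024 and 0.019). The 2 h change of Cyc1 was called by DESeq2 (adjusted p = 0.0136) and by edgeR without the filter on low counts (adjusted p = 0.00609). Uqcrc2, a core subunit, showed the opposite order. It had 73.6 and 84.7 CPM in DMSO cells, 44.9 and 49.9 at 2 h, then 54.3 and 56.3 by 6 h and 61.4 and 60.2 at 24 h. All depleted libraries lay below the controls, and only the change at 2 h was called (log2 -0.74 ± 0.13, adjusted p = 0.017), with -0.52 and -0.38 later.

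In complex V, the lower genes belonged to the central stalk (Atp5d, the delta subunit), the peripheral stalk (Atp5o) and the membrane part (Atp5j2 and Atp5mpl). Atp5d had 32.0 and 26.9 CPM in DMSO cells, 12.7 and 14.0 at 2 h, then 8.5 and 8.10 by 6 h and 7.77 and 9.27 at 24 h. Its log2 changes were -1.14 ± 0.18, -1.82 ± 0.19 and -1.78 ± 0.19. Every depleted library was under the controls, and those of 6 h and 24 h were under those of 2 h.

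Atp5j2, subunit f, had 96.9 and 89.3 CPM in DMSO cells and 34.1 to 46.2 in the 6 depleted libraries, with log2 changes of -1.19 ± 0.16, -1.20 ± 0.16 and -1.39 ± 0.16. Atp5mpl, a small proteolipid of the complex, had 43.5 and 39.9 CPM in DMSO cells and 14.5 to 23.3 in depleted libraries. Neither gene's depleted libraries reached its controls. Atp5o, the gene with the highest peak, had 50.1 and 51.0 CPM in DMSO cells, 31.2 and 37.7 at 2 h, then 31.7 and 32.7 by 6 h and 32.7 and 33.1 at 24 h. The groups did not overlap, but the change was small and was called at 6 h (log2 -0.65 ± 0.14, adjusted p = 0.042) and at 24 h (log2 -0.62, with an adjusted p of 0.037) and not at 2 h (-0.55, adjusted p = 0.098). The call at 24 h was lost with scaling by library size (adjusted p = 0.0605).

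With 2 libraries a group these TT-seq calls differed in how firmly they held. When each library was left out in turn, Cox7c and Uqcr10 stayed called at every time, Atp5d at 6 h and 24 h and Atp5j2 at 24 h. At 2 h, 2 to 5 members remained called, and at 6 h, 3 or 4. At 6 h the calls of Atp5mpl, Uqcrb, Cyc1 and Atp5o were lost without any 1 of the 4 libraries compared, with adjusted p up to 0.141, 0.353, 0.216 and 0.302. The same held for Atp5mpl at 2 h (0.318) and for Uqcrb (0.084) and Atp5o (0.135) at 24 h. Of the other calls, Atp5d was lost at 2 h without the first DMSO or either 2 h library (0.162), Uqcrb and Uqcrc2 without the second DMSO or either 2 h library (0.156 and 0.196), and Atp5j2 without the first library of 2 h (0.0616) or of 6 h (0.0767). At 24 h Atp5mpl and Cyc1 were lost without the first DMSO or first 24 h library (0.0623 and 0.0979).

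The height of the peak and the change in transcription were related only in part. Over the 15 members with a peak, Spearman's rho between fold enrichment and the TT-seq log2 change was -0.632 at 2 h and -0.704 at 6 h and 24 h. These values describe genes of the same libraries and carry no test. The 3 lowest peaks belonged to members whose 2 h changes were -0.13 for Cox7b, -0.17 for Cox4i1 and 0.00 for Sdha, and Sdhb was at -0.08. Of the 12 peaks above the median height, 7 belonged to members called at 2 h. Cox7c, with the lowest change, had a peak of middle height, and Atp5o, with the highest peak, one of the smaller changes. The median over the members with a peak was -0.74 at 2 h, against -0.272 over all protein-coding genes with a peak. Without a peak it was -0.183, against 0.0315.

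**Figure D2:**
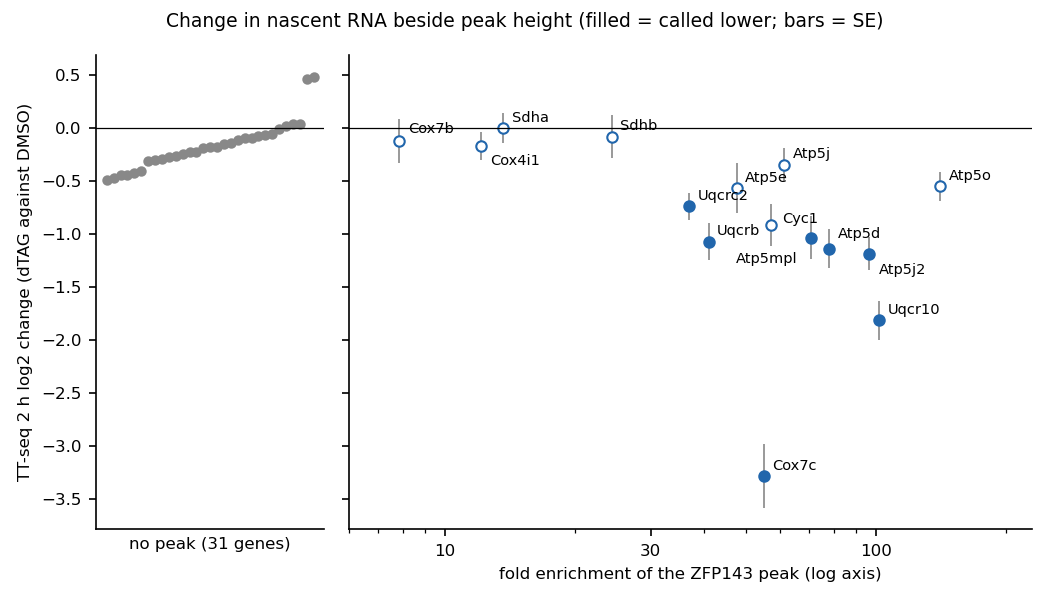
TT-seq log2 change after 2 h of dTAG-V1 (y axis) for 31 members without a peak (left, in order of change) and 15 with one, by fold enrichment of the peak (right, log axis). Bars are SE and filled points are members called lower. Members with peaks under a fold of 30 lay near 0, and Cox7c, at a fold of 55.0, was lowest at -3.29.

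In poly(A) RNA the number of lower members grew with time. Calls in RNA-seq needed an adjusted p under 0.01 in edgeR's test against a fold of 1.5 (glmTreat, over all 13925 genes tested). Of 46 tested members, 9 were lower at 24 h, 17 at 48 h and 18 at 72 h, with backgrounds of 3.41%, 7.71% and 12% of all genes tested. Of these calls, 7, 13 and 12 stayed called under every alternative and with each library left out. The median log2 change of the members was -0.17, -0.45 and -0.60, against 0.02, 0.01 and 0.02 over all genes. With scaling by library size alone the members' medians were -0.035, -0.254 and -0.383. Cox6a2 alone was higher at each time, where 2.32%, 10.5% and 13.7% of all genes were. The summed level of all members was 11440 and 11390 CPM in DMSO cells, 10100 and 9873 at 24 h, then 8524 and 8308 by 48 h and 7870 and 7748 at 72 h. These levels are relative to the other RNAs of each library, so that less RNA per cell and fewer cells with these RNAs cannot be told apart in bulk samples.

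The lower members at 24 h were nearly all genes with a peak, 8 of 9, while later those without one made up about as many. With a peak, 8, 8 and 10 of 15 members were lower at 24 h, 48 h and 72 h, against 17.8%, 23.4% and 25.8% of all protein-coding genes with a peak. Without a peak the counts were 1, 9 and 8 of 31, against 0.944%, 5.24% and 10.1%. The 11 members called at 48 h or 72 h but not at 24 h comprised 9 without a peak and 2 with one, Atp5o and Cyc1, where 10% of all genes tested had this pattern. The summed level of the members with a peak was 3007 and 3002 CPM in DMSO cells and 2099 and 2059 at 24 h, and that of the members without a peak was 8431 and 8393, then 8002 and 7814. At 72 h it was 1721 and 1708 with a peak and 6148 and 6040 without.

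**Figure D3:**
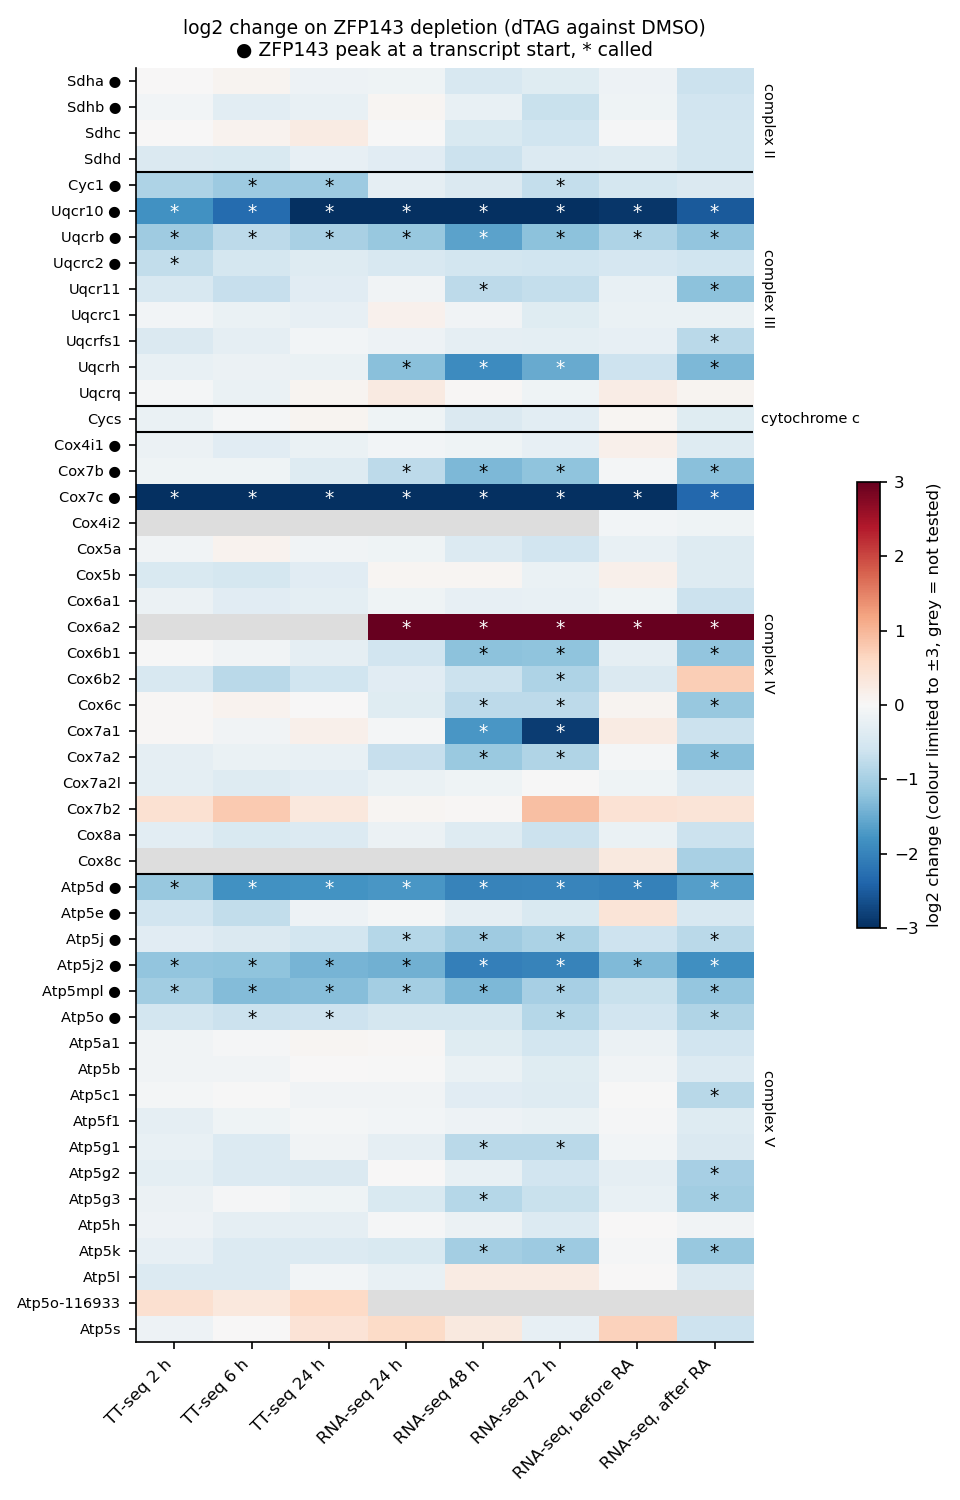
Log2 change of each member (rows, by complex) in the 8 comparisons of dTAG-V1 with DMSO (columns), with colours limited to ±3 and grey where a gene was not tested. A dot marks a ZFP143 peak and an asterisk a called change. Cox7c, Uqcr10, Atp5d, Atp5j2 and Uqcrb were lower in every comparison, and genes of complex II carried no asterisk.

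Uqcr10 and Cox7c had the most negative RNA-seq changes of the members. Uqcr10 had 128 and 134 CPM in DMSO cells, 14.2 and 14.3 at 24 h, then 8.72 and 7.84 by 48 h and 6.94 and 7.37 at 72 h. Its groups did not overlap at any time, with log2 changes of -3.20 ± 0.08, -3.98 ± 0.09 and -4.19 ± 0.09 (adjusted p = 9.5e-21, 1.8e-22 and 1.5e-23). Cox7c had 80.1 and 74.9 CPM in DMSO cells, 5.73 and 6.75 at 24 h, then 5.28 and 6.32 by 48 h and 7.12 and 8.19 at 72 h, and its depleted libraries stayed within a narrow range. Its log2 changes were -3.64 ± 0.10, -3.74 ± 0.11 and -3.32 ± 0.10.

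Atp5d had 226 and 204 CPM in DMSO cells, 66.7 and 60.8 at 24 h and 49.4 to 56.3 later. Atp5j2 had 201 CPM in both DMSO libraries, 75.7 and 72.5 at 24 h and 47.2 to 51.9 later. Both genes were far below their controls, with log2 changes at 72 h of -1.99 ± 0.06 and -2.01 ± 0.05. Uqcrb had 110 and 106 CPM in DMSO cells, 50.7 and 48.4 at 24 h, then 34.6 and 36.1 by 48 h and 41.8 and 49.7 at 72 h. Atp5mpl had 77.3 and 81.9 CPM in DMSO cells, 41.2 and 38.0 at 24 h, then 31.9 and 30.5 by 48 h and 39.8 and 39.9 at 72 h. Each of these depleted libraries lay under its controls, and both genes were lowest at 48 h, with log2 changes of -1.62 and -1.35.

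At 24 h, the time that TT-seq and RNA-seq shared, some members with a peak were called in only 1 of the assays, which had different thresholds. Atp5o, called in TT-seq alone, had like changes of -0.62 and -0.53. Cyc1 was at -1.08 in TT-seq and at -0.27 in RNA-seq, where its levels were 256 and 255 CPM in DMSO cells, 214 and 209 at 24 h, then 194 and 184 by 48 h and 160 and 153 at 72 h. These groups did not overlap, and the change was called at 72 h alone (log2 -0.71 ± 0.05, adjusted p = 0.0046, edgeR). This call was lost in 3 of the 4 edgeR fits with 1 library left out (either DMSO library or the second 72 h library). It was also lost with scaling by library size and, with all libraries kept, in DESeq2 (adjusted p = 0.0818). Uqcrc2 had 246 and 258 CPM in DMSO cells and 163 to 185 in depleted ones, with a change of -0.61 at 72 h that was not called. Cox7b, a subunit of complex IV with the lowest peak, was at -0.38 in TT-seq at 24 h (not called) and at -0.78 ± 0.05 in RNA-seq (adjusted p = 0.0014). It had 216 and 207 CPM in DMSO cells, 128 and 118 at 24 h, then 83.8 and 83.2 by 48 h and 95.3 and 87.8 at 72 h, all depleted libraries below the controls. Its call at 24 h was lost without the first DMSO library, without the second 24 h library, in DESeq2 and with scaling by library size (adjusted p = 0.308 at most). Atp5o had 78.5 and 71.6 CPM in DMSO cells, 54.3 and 49.4 at 24 h, then 53.5 and 50.3 by 48 h and 43.6 and 39.8 at 72 h. It lay below its controls at each time and was called at 72 h alone (log2 -0.85 ± 0.07, adjusted p = 0.0005), a call lost without the second 72 h library, in DESeq2 and with scaling by library size (adjusted p = 0.267 at most).

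Atp5j, a subunit of the peripheral stalk, was likewise called in RNA-seq at each time (log2 -0.86, -1.06 and -0.94) and not in TT-seq (-0.35, -0.44 and -0.55). Its call at 24 h was lost with scaling by library size (log2 -0.72, adjusted p = 0.0343). Its peak lies between Atp5j and Gabpa, which encodes the DNA-binding subunit of the transcription factor GABP, or nuclear respiratory factor 2, a known regulator of respiratory chain genes. Gabpa had log2 changes in RNA-seq of -0.21 and -0.64, not called, and -0.85 at 72 h (adjusted p = 6.21e-06), and of 0.10, 0.20 and 0.01 in TT-seq, not called. The part of Gabpa in the members' levels was not tested.

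Uqcrh, which encodes the hinge protein that helps to bind cytochrome c to complex III, stood apart among the genes without a peak. It was the only one of them called at 24 h. It had 153 and 159 CPM in DMSO cells, 64.2 and 67.9 at 24 h, then 43.6 and 40.2 by 48 h and 58.8 and 51.3 at 72 h, with no overlap. The log2 changes were -1.24 ± 0.06, -1.90 ± 0.06 and -1.51 ± 0.06 (adjusted p = 1.1e-10, 5.6e-17 and 2.1e-14). Its TT-seq level was 40.6 and 38.7 CPM in DMSO cells and 28.9 to 39.0 in depleted ones, the groups overlapped at 2 h, and the changes of -0.22, -0.18 and -0.19 were not called. At 24 h the RNA-seq change was thus lower than the TT-seq change by 1.05 on the log2 scale. The tables were normalised separately and the difference was not tested. Uqcrh has 2 named pseudogenes and overlaps Gm12854 on the other strand, so its counts are uncertain where reads could be shared.

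Among small subunits of complex IV without a peak, Cox6b1, Cox6c and Cox7a2 were called at 48 h and 72 h. Cox6b1 had 204 and 203 CPM in DMSO cells, 134 and 141 at 24 h, then 88.8 and 85.6 by 48 h and 94.7 and 83.1 at 72 h. Cox7a2 had 148 CPM in both DMSO libraries, 95.8 and 87.4 at 24 h, then 67.8 and 68.7 by 48 h and 79.7 and 79.8 at 72 h. Both genes were below their controls at each time, with log2 changes at 48 h of -1.22 ± 0.05 and -1.12 ± 0.05. The call of Cox7a2 at 72 h was lost with scaling by library size (adjusted p = 0.0492). Cox6c had 146 and 147 CPM in DMSO cells and 84.4 to 85.4 at 48 h and 72 h, with changes of -0.80 and -0.78, calls that were lost with scaling by library size and in DESeq2.

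In complex V without a peak, Atp5k (subunit e, in the membrane part) was lower at 48 h and 72 h, with 64.6 and 68.0 CPM in DMSO cells and 31.1 to 33.9 at those times, which did not overlap. Of the 3 genes that encode the same mature c subunit of the rotor ring, Atp5g1 was lower at 48 h (log2 -0.82) and 72 h (-0.80) and Atp5g3 at 48 h (-0.86). Atp5g3 had 353 and 359 CPM in DMSO cells, 260 and 261 at 24 h, then 199 and 193 by 48 h and 228 and 217 at 72 h. Atp5g1 had 133 and 116 CPM in DMSO cells and 68.8 to 72.3 at 48 h and 72 h. Both lay below their controls, while Atp5g2, with 32.1 and 29.9 CPM in DMSO cells and 21.0 and 20.5 at 72 h, was not called (-0.58). The calls of Atp5g1 were lost without the first DMSO library, in DESeq2 and with scaling by library size, with adjusted p up to 0.552, and the one at 48 h also without the second 48 h library (0.015). That of Atp5g3 was lost with scaling by library size (0.0656).

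Of the 45 members tested in all 3 tables, 21 were called lower in none of the 8 comparisons with DMSO, as were 81.3% of all genes tested in the 3 tables. Of the 21, 4 had a peak (Atp5e, Cox4i1, Sdha and Sdhb). Cox4i2, Cox6a2, Cox8b, Cox8c and the second Atp5o model were not tested in every table. The 21 included several catalytic and core subunits. The alpha and beta subunits that form the ATP synthase head, Atp5a1 and Atp5b, had TT-seq changes at 2 h of -0.11 and -0.10. Their RNA-seq changes at 72 h were -0.54 and -0.37. Atp5b had the highest count level among members, with 2790 and 2778 CPM in DMSO cells and 2182 and 2138 at 72 h, which did not overlap. Uqcrc1 (-0.36) and Cox4i1 (-0.24), Cox5a (-0.58) and Cox5b (-0.21) at 72 h were not called either, and Cycs was at -0.31. Cox8a had 253 and 251 CPM in DMSO cells and 168 and 157 at 72 h, which did not overlap and were not called (-0.64). The supercomplex factor Cox7a2l had 109 and 116 CPM in DMSO cells and 115 and 108 at 72 h, which overlapped. Uqcrq, Atp5e, Atp5f1, Atp5h and Atp5l lay between -0.45 and 0.25 at 72 h. The second gene model with the symbol Atp5o, which spans several other genes, had TT-seq counts and no RNA-seq counts.

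No gene of complex II was called against DMSO in the RNA-seq time course by edgeR's test against a fold of 1.5, with 0, 0 and 1 lower at an unadjusted p under 0.05, although all 4 had negative log2 changes at 48 h and 72 h. At 72 h they were -0.35 for Sdha, the flavoprotein, -0.67 for Sdhb, the iron-sulfur subunit, and -0.60 and -0.42 for the membrane anchors Sdhc and Sdhd. The changes of Sdhd at 48 h (-0.63) and of Sdhb and Sdhc at 72 h passed the thresholds used for TT-seq in the quasi-likelihood test. Sdhb, which has a peak, had 180 and 195 CPM in DMSO cells, 196 and 194 at 24 h, then 157 and 162 by 48 h and 116 and 120 at 72 h. Its 72 h libraries were under all others, and its change from 24 h to 72 h was called (log2 -0.73 ± 0.05, adjusted p = 0.0063, edgeR). This call was lost in DESeq2 (adjusted p = 0.214) and in edgeR with scaling by library size (0.228). The median at 72 h was -0.51 over complex II, -0.71 over complex III with 4 of 9 genes lower, -0.64 over complex IV with 7 of 15 tested genes lower and -0.58 over complex V with 7 of 17 lower, where 12% of all genes tested were. Differences between complexes were not tested.

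From 24 h to 72 h of depletion, 3 of 46 tested members were lower, a share near the background of 6.6%, and 1, Cox6a2, was higher (7.53%). The lower ones were Sdhb, Uqcr10 and Cox7a1. Cox7a1 had the largest fall. Without any 1 of the 4 libraries Sdhb and Uqcr10 were no longer called, with adjusted p up to 0.0567 and 0.0231, and the count went from 3 to 1. Both were also lost with scaling by library size (0.228 and 0.0159) and in DESeq2 (0.214 and 0.105).

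Complex IV holds several subunits that occur as a common and a tissue-restricted isoform. Cox7a1, known as the heart and skeletal muscle form of subunit 7a, had 15.7 and 13.8 CPM in DMSO cells, 13.4 and 14.6 at 24 h, then 3.68 and 5.08 by 48 h and 2.13 and 1.98 at 72 h. It overlapped its controls at 24 h and lay far below them later, with log2 changes of -0.07, -1.75 ± 0.16 and -2.84 ± 0.19 (adjusted p at 72 h of 9.8e-12). In TT-seq its groups overlapped at each time, with 2.90 and 4.27 CPM in DMSO cells and 2.16 and 5.70 at 24 h.

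Cox6a2, the muscle form of subunit 6a, was nearly absent in DMSO cells and was the only member called higher after depletion by the test against a fold of 1.5. By the quasi-likelihood test at the TT-seq thresholds, 2 members were higher at 24 h and at 72 h. It had 0 and 2 counts in DMSO cells, 22 and 31 at 24 h, then 152 and 149 by 48 h and 135 and 157 at 72 h. Every depleted library was above both controls. From summed counts scaled to library totals, the ratio to DMSO cells was 28.3 at 24 h (95% interval 7.45 to 240, counting error only) and 143 at 72 h (39.2 to 1180). As a share of Cox6a1 and Cox6a2 together, in CPM per kb of exon, Cox6a2 went from 0 and 0.0604% in DMSO cells to 5.62% and 4.89% at 72 h. Cox6a1, the common form, had 259 and 243 CPM in DMSO cells and 216 and 215 at 72 h, which was not called (-0.22). Cox6a2 has no ZFP143 peak and overlaps Itgad on the other strand, whose reads could not be told apart if strand was not used in counting.

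Summed markers of striated muscle were 0 to 0.551 CPM in DMSO cells and 1.23 to 1.57 at 72 h, with none of the 3 markers above 10 counts in these libraries. Summed markers of male germ cells were 28.6 to 29.9 CPM in DMSO cells and 122 to 134 at 72 h. Of these, Ddx4 and Dazl were above 10 counts in both 72 h libraries, and Prm1 was at 0 in the depleted libraries. Summed markers of embryonic stem cells went from 5380 to 5500 CPM to 3880 to 3940. Those of primitive endoderm went from 5.88 to 6.2 CPM to 13.1 to 13.6, those of mesoderm from 9 to 9.19 to 16.7 to 17.5 and those of neural cells from 218 to 226 to 136 to 143. All 7 stem cell markers were detected in every group. The part of such cells in the isoform levels was not tested. Cox6b2, known from testis, had 71.3 and 63.0 CPM in DMSO cells and 31.4 and 38.4 at 72 h (log2 -0.92 ± 0.08, adjusted p = 0.00014), a call lost without the first 72 h library and with scaling by library size (adjusted p = 0.0686 at most). Cox7b2 had 1.28 to 2.77 CPM and was not called, and Cox4i2, Cox8b and Cox8c had too few counts to be tested.

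**Figure D4:**
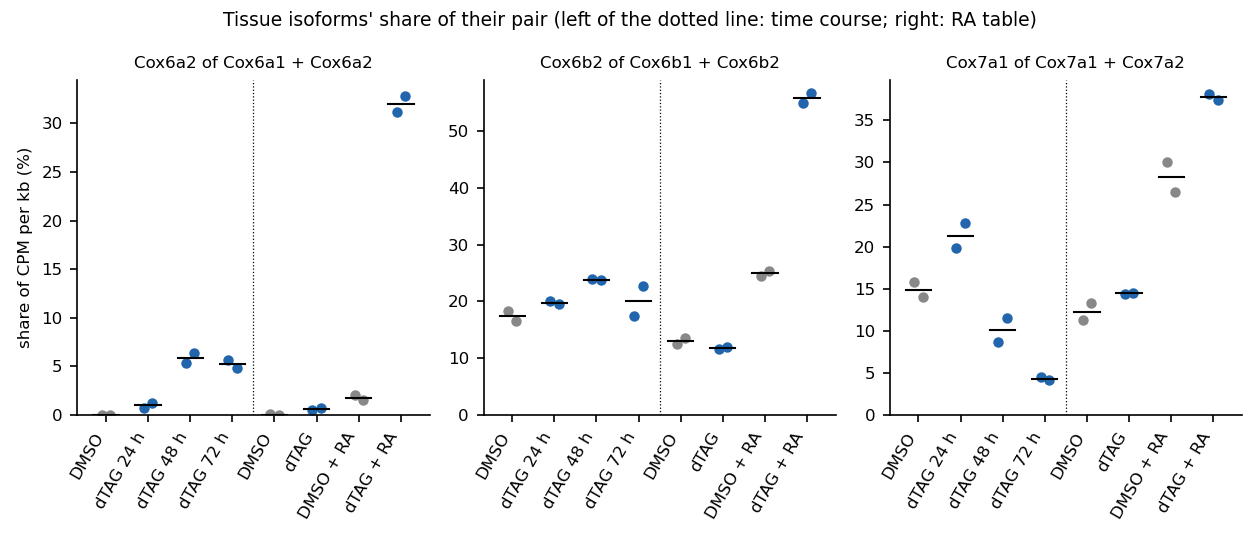
Share of the tissue-restricted isoform in its pair (y axes, % of CPM per kb of exon) for Cox6a2, Cox6b2 and Cox7a1, over the RNA-seq time course (left) and the RA table (right). Points are single libraries (blue with dTAG-V1, grey with DMSO) and bars the mean of 2. In cells with both dTAG-V1 and RA, Cox6a2 reached 31.2% and 32.8% and Cox6b2 54.9% and 56.7%.

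In the table with RA, depletion for 24 h was measured again before RA was added. Of 48 tested members, 5 were lower (background 3.66%) and 1, Cox6a2, was higher (2.74%). The 5 lower ones were Uqcr10, Cox7c, Atp5d, Atp5j2 and Uqcrb, each with a peak, and all were also lower in every TT-seq and RNA-seq comparison with DMSO. Cox7c had 93.2 and 79.8 CPM in DMSO cells and 9.25 and 8.61 with dTAG-V1, and Uqcr10 had 133 and 124 against 17.0 and 16.9, without overlap. The log2 changes of the 5 were -2.92, -3.28, -2.03, -1.33 and -0.94. The last of these, Uqcrb, was lost without the second dTAG-V1 library and with scaling by library size (adjusted p = 0.0255 at most), and the call of Cox6a2, on 5 counts in both DMSO libraries together, was lost in DESeq2 and in 3 of the 4 fits with a library left out. The median over the members was -0.13 and turned to 0.00248 when libraries were scaled by size alone.

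After RA, 19 members were lower in depleted than in control cells (background 7.36%) and Cox6a2 was higher (9.1%). The 19 comprised 9 members with a peak and 10 without, 5 from complex III, 5 from complex IV and 9 from complex V. Of the 19, 14 stayed called under every alternative and with each library left out, and Atp5c1, Atp5g2, Atp5j, Atp5o and Uqcrfs1 did not. The median log2 change was -0.63, against 0.00 over all genes tested. Against the comparison before RA, 14 members were newly called, which include the 5 just named, where 5.47% of all genes tested were. Those that held in every fit included Cox7b (-1.24 ± 0.11), Cox7a2 (-1.26 ± 0.09), Cox6c (-1.14 ± 0.08), Cox6b1 (-1.18 ± 0.08), Atp5k (-1.14 ± 0.11), Uqcr11 (-1.24 ± 0.08) and Uqcrh (-1.35 ± 0.10). The cells with RA had been depleted for 48 h and those before RA for 24 h, so that longer depletion and RA cannot be told apart within this table. In the time course, which was normalised separately, 10 of the 14 were lower after 48 h of dTAG-V1 without RA, and Atp5c1, Atp5g2, Atp5o and Uqcrfs1 were not called there.

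Uqcr10 was the lowest member after RA, with 82.2 and 73.6 CPM in control cells and 13.6 and 13.8 in depleted ones (log2 -2.51 ± 0.09, adjusted p = 1.6e-13). Cox7c had 92.0 and 85.4 CPM against 16.9 and 17.9 (-2.35 ± 0.10). Atp5j2 had 115 and 118 CPM against 36.1 and 28.9 (-1.84), and Atp5d 163 and 152 against 50.8 and 49.5 (-1.65). None of these groups overlapped. All members with a peak were below their controls in both libraries after RA, as were 29 of the 33 tested members without one, where 39.4% of all genes tested were.

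In control cells 10 of 48 members were lower with RA, a share near the background of 18.1%, and 5 were higher (25.8%). In depleted cells 27 were lower (18.5%) and 5 higher (25%). The members lower in both were Atp5g1, Atp5g3, Atp5j2, Atp5k, Cox5a, Cox6b1, Uqcr11, Uqcrc1 and Uqcrh, where 11.9% of all genes tested were lower in both. In control cells only Atp5g1, Atp5g3 and Cox5a were lower under every alternative and with each library left out, and the count was 3 with scaling by library size and 5 in DESeq2, and 5 and 6 without the first or the second control library with RA. In depleted cells 13 of the 27 were lower in every fit, and library-size scaling called 13. The median log2 change of the members with RA was -0.45 in control and -0.85 in depleted cells, and -0.13 and -0.46 with scaling by library size. The summed level of the members was 12820 and 13380 CPM in DMSO cells, 9276 and 8871 with RA, 11470 and 11240 with dTAG-V1, and 6444 and 5793 with both. The last pair lay under all other libraries of the table.

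The difference between the RA effects was tested as an interaction in edgeR, with the thresholds used for TT-seq. It was called negative for 20 of 48 members (background 18%) and positive for 2 (13.7%), with a largest adjusted p of 0.00719 among the 20. By complex, it was negative for 1 gene of complex II, Sdhc, 3 of complex III and 8 of complex IV. The 20 comprised 5 of the 15 members with a peak and 15 of the 33 tested without one. Over all protein-coding genes with a peak 9.73% were negative and 26.7% positive, and without a peak 19.5% and 12.8%. Under every alternative and with each library left out in turn, 13 of the 20 and both positive ones stayed called, and 13 were called both with scaling by library size alone and without the second library of depleted cells with RA.

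Cox6c shows the pattern. It had 135 and 123 CPM in DMSO cells, 102 in both libraries with RA, 141 and 131 with dTAG-V1 and 49.4 and 43.4 with both. Only the last pair lay far below the rest, and the interaction was -1.22 ± 0.11 (adjusted p = 3.2e-08). Cox7a2 had 132 and 106, 83.9 and 88.6, 117 and 114, and 37.5 and 34.4 CPM in the same order, with an interaction of -1.22 ± 0.13. Cox7b, which has a peak, had 172 and 123, 122 and 132, 146 and 138, and 54.0 and 53.3 CPM, with an interaction of -1.19 ± 0.15. In each gene both depleted libraries with RA lay below all other libraries.

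**Figure D5:**
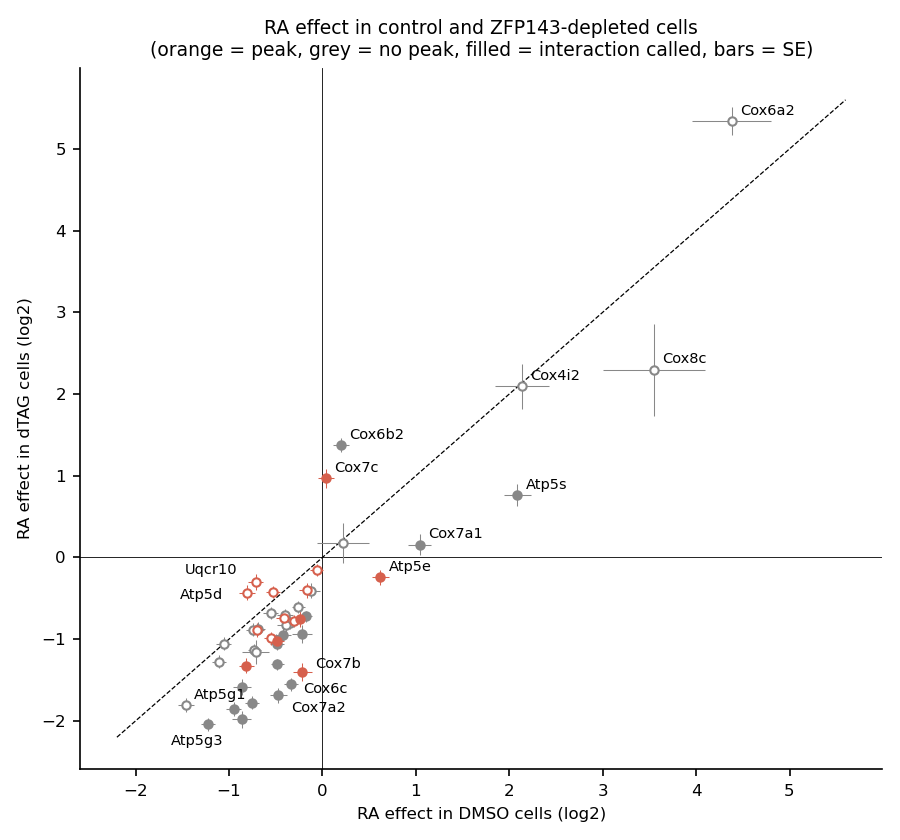
Log2 effect of RA in DMSO cells (x axis) and in dTAG-V1 cells (y axis) for the 48 members tested, with SE bars, orange with a ZFP143 peak and grey without. Filled points have a called interaction and the dashed line marks equal effects. Most points lie below the line, and Cox7c and Cox6b2 lie above it.

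Both members with a positive interaction belonged to complex IV. Cox7c differed little with RA in control cells (log2 0.04), and in depleted cells it went from 9.25 and 8.61 CPM to 16.9 and 17.9 (0.97 ± 0.12, adjusted p = 0.00088), still far under the control level. This call was lost without the second dTAG-V1 library before RA (adjusted p = 0.0167). Its interaction was 0.93 ± 0.14. Cox6b2 had 48.4 and 52.6 CPM in DMSO cells, 57.1 and 59.0 with RA, 37.2 and 37.7 with dTAG-V1 and 104 and 90.6 with both. The last pair was above all other libraries, and the interaction was 1.18 ± 0.12 (adjusted p = 1.2e-07). As Cox6b1 had 54.7 and 44.2 CPM in these libraries, Cox6b2 made 54.9% and 56.7% of the pair per kb of exon, against 12.6% and 13.5% in DMSO cells and 24.5% and 25.4% with RA alone.

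Cox6a2 rose with RA in control cells, from 3 and 2 counts to 78 and 34, and in depleted cells from 18 and 33 to 988 and 976. The ratios were 21.9 (95% interval 9.12 to 68.8) and 40.6 (30.8 to 54.7, counting error only), and the interaction of 0.96 ± 0.80 was not called. Both DMSO libraries lay under all libraries with RA. Its share of the pair with Cox6a1 reached 31.2% and 32.8% in depleted cells with RA, against 2.05% and 1.56% in control cells with RA. Cox4i2 had 0.682 and 0.860 CPM in DMSO cells, 3.27 and 3.55 with RA, 0.623 and 0.797 with dTAG-V1 and 3.21 and 2.98 with both, so that both RA groups lay above the others. Cox8c was raised by RA in control cells (0.158 and 0.0573 to 1.19 and 1.57 CPM) and had 0.583 and 0.791 CPM in depleted cells with RA.

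Cox7a1 had 9.55 and 9.23 CPM in DMSO cells, 20.4 and 18.1 with RA, 11.2 and 11.0 with dTAG-V1 and 13.1 and 11.6 with both. It was thus highest in control cells with RA (log2 1.04 ± 0.13, adjusted p = 0.00046, and 0.0248 in DESeq2, which is not a call), and the interaction was -0.88 ± 0.18. Atp5s, which is no subunit, had an interaction of -1.32 ± 0.20. Summed markers in this table were 5.70 to 8.12 CPM for striated muscle in control cells with RA and 7.82 to 8.26 in depleted ones, 178 to 192 and 407 to 412 for male germ cells with Prm1 at 0, 26.6 to 27.4 and 48.4 to 49.8 for primitive endoderm, 6.54 to 10.3 and 25.9 to 26.2 for fibroblasts, 108 to 124 and 50.4 to 52.9 for neural cells, 8.8 to 8.92 and 9.73 to 10.2 for mesoderm, and 675 to 1000 and 1290 to 1510 for stem cells. The part of such cells in the interactions was not tested.

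Genes that act with these subunits were taken from fixed lists. Usmg5, the complex V subunit outside the symbol rule, was not called in any comparison with DMSO (log2 -0.72 at 48 h and -0.46 at 72 h in RNA-seq) and had a called interaction of -0.84. Of 39 genes listed as assembly factors of complexes II to V, 9 have a peak. In TT-seq 0, 1 and 1 of the 39 were lower at 2 h, 6 h and 24 h. In RNA-seq 1, 2 and 5 of the 38 tested were lower at 24 h, 48 h and 72 h, near the backgrounds of 3.41%, 7.71% and 12%. At these times none was called higher by edgeR. Their median in RNA-seq was 0.04 at 24 h and -0.05 at 72 h. The one lower at 24 h was Coa3, an assembly factor of complex IV with a ZFP143 peak, with log2 changes of -2.13 and -1.35 in TT-seq at 6 h and 24 h and of -1.73, -1.66 and -1.67 in RNA-seq. At 72 h Bcs1l, Pet100, Atpaf1 and Atpif1 were lower too. Atpif1 is on the list but encodes an inhibitor of ATP synthase and not an assembly factor. Of the 6 subunits of complexes III to V encoded by mitochondrial DNA, mt-Cytb and mt-Co1 passed the filter on low counts. Their TT-seq changes were -0.10 and -0.16 at 2 h and -1.04 and -0.91 at 24 h, both called at 24 h. In RNA-seq they were -0.81 (called) and -0.55 (not called) at 24 h and -1.69 and -1.80 at 72 h, both called.

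Depth ranged from 9721568 to 16532077 counted reads in TT-seq, from 10261851 to 15316700 in the RNA-seq time course and from 13890761 to 27089033 in the RA table. Variation between libraries of a group, as edgeR's biological coefficient of variation, was 17.2%, 3.65% and 5.92%. The Zfp143 transcript itself was higher with dTAG-V1, with log2 changes of 1.09 to 1.38 over the 8 comparisons with DMSO, and so it gives no check that the protein was depleted. Scaling by library size alone raised the median of all genes by 0.132 to 0.219 in the RNA-seq time course against DMSO and by 0.135 to 0.392 in the RA table, and the members' medians with it.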

How the data were processed

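The deposited files used here were 3 tables of raw read counts per gene (TT-seq, an RNA-seq time course and RNA-seq with RA) and 2 peak lists. Per the methods, the authors aligned reads to mm10 with STAR. TT-seq reads were freed of duplicates with Picard, split by strand and counted by the authors over gene bodies with htseq-count, with reads in overlapping genes given to each. The RNA-seq counts came from STAR, from a stranded kit, and the strand setting is not given in the sources used here. For ZFP143 the authors deposited 1 MACS2 list made with an antibody to the HA tag and input as control, whose columns hold fold enrichment and −log10 q-values. Their CTCF list was used for positions only, and the files of 4C experiments were not used.

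Gene positions and exon lengths were taken from GENCODE vM21 on GRCm38, while the authors used a later release, and 55141 of 55401 gene IDs matched without their version. A gene was tested where 4 or more of a table's 8 libraries held over 10 counts, with edgeR 4.0.16 (limma 3.58.1, R 4.3.3) after TMM scaling, with 1 fit per table over its 4 groups and the thresholds given with the results. CPM values use the same scaling. p-values were adjusted over all genes tested. They measure the spread between 2 libraries a group, and intervals of counts cover counting error only. The scripts were tested on simulated data. Alternatives were DESeq2 1.42.0, other scalings, no filter, a replicate block, other peak windows and each library left out.

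All members were named. Values by library, or their range, were given for Cyc1, for members called in TT-seq, for the members with the largest called changes in RNA-seq and for fixed groups of paralogs. The values of Uqcrh, Cox6c and other members beyond these were chosen after their values were seen. Members, lists and this rule were chosen with earlier results of these data known.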

Additional observations from a re-analysis of the deposited data

Results flagged for a closer look

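The effect of RA differed between control and depleted cells, by edgeR's interaction test, for 22 members, so these were taken for a closer look. It was negative for 20 of the 48 tested, where 18% of all genes were, and positive for 2, where 13.7% were. The interaction, RA effect in dTAG-V1 cells minus RA effect in DMSO cells on the log2 scale, was most negative for Atp5s (-1.32), which is no subunit. In complex IV it was -1.22 for Cox7a2, -1.22 for Cox6c, -1.19 for Cox7b, -0.91 for Cox6b1, -0.88 for Cox7a1, -0.55 for Cox5b, -0.54 for Cox4i1 and -0.53 for Cox6a1. In complex V it was -1.12 for Atp5k, -0.86 for Atp5e, -0.82 for Atp5c1, -0.82 for Atp5g3, -0.72 for Atp5g2, -0.51 for Atp5j2 and -0.51 for Atp5mpl. In complex III it was -1.02 for Uqcr11, -0.72 for Uqcrh and -0.57 for Uqcrfs1, and in complex II -0.52 for Sdhc. It was positive for Cox7c (0.93) and Cox6b2 (1.18). The negative values of Atp5j2, Atp5mpl, Cox4i1, Cox5b, Cox6a1, Sdhc and Uqcrfs1 were no longer called with scaling by library size or without the second library of depleted cells with RA, and all but Uqcrfs1 also fell under the log2 threshold of 0.5 in DESeq2 and with its size factors in edgeR. Depleted cells with RA had 24 h more of dTAG-V1 than depleted cells before RA, and no group of the same table tells these apart. In the separately normalised time course, Cox6b2 had a log2 change of -0.65 after 48 h of dTAG-V1 without RA, which was not called. Cox7c, the other positive one, was lower there at each time. Of the negative ones, Cox7a2, Cox6c, Cox7b, Cox6b1, Cox7a1, Atp5k, Atp5g3, Atp5j2, Atp5mpl, Uqcr11 and Uqcrh were lower there against DMSO at some time. The other negative ones were not called lower there. The part of longer depletion in the interactions was not tested.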

How the results depend on the processing

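No comparison of a single member named here changed sign in a call. Scaling by library size alone gave members' medians of -0.035, -0.254 and -0.383 in RNA-seq at 24 h, 48 h and 72 h, -0.256 for 72 h against 24 h, 0.00248 (reversed) before RA, -0.421 after RA, and -0.126 and -0.458 for RA in control and depleted cells. It called 1 member lower for 72 h against 24 h, 2 higher after RA, 3 and 13 lower with RA in control and depleted cells, and 13 negative interactions. DESeq2 called 1 higher in TT-seq at 24 h, 1 lower for 72 h against 24 h, 0 higher before RA (1 at the main setting, Cox6a2) and 5 lower with RA in control cells. edgeR's quasi-likelihood test at the TT-seq thresholds called 2 higher in RNA-seq at 24 h, 72 h and 72 h against 24 h, 13 lower for 72 h against 24 h, 11 lower and 2 higher before RA, 30 lower and 2 higher after RA, and 19 lower with RA in control cells. Without the filter, 1 was higher in TT-seq at 6 h and at 24 h, and the RNA-seq median at 72 h was -0.635. DESeq2's size factors in edgeR gave a median of -0.461 for RA in control cells. With peaks at or above the median fold only, the median of members with a peak was -0.976 in TT-seq at 2 h and -0.972 in RNA-seq at 72 h. The cause of these shifts was not tested beyond the settings named.

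With the replicate number as a block, 1 member was higher in TT-seq at 2 h and at 24 h and no other count moved by over 1.5 times, Cyc1 was called lower in TT-seq at 2 h and Uqcr11 was no longer called with RA in control cells. Deviations of same-numbered libraries correlated at 0.193 to 0.631 in TT-seq, -0.0419 to 0.0621 in the RNA-seq time course and -0.0986 to 0.125 in the RA table. With 2 numbers and no label of a shared batch, the numbers were not taken as pairs, although every TT-seq value was above 0.

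Leaving out each library in turn gave 2 to 5, 3 to 4 and 4 to 6 lower members in TT-seq at 2 h, 6 h and 24 h, 8 to 9, 15 to 17 and 16 to 17 in RNA-seq at 24 h, 48 h and 72 h, and 1 for 72 h against 24 h. Before and after RA it gave 4 to 5 and 14 to 18, with RA in control and depleted cells 5 to 9 and 19 to 24, and 13 to 20 negative interactions. Higher members numbered 0 in TT-seq at 2 h and 6 h, 0 to 1 at 24 h, 1 in each RNA-seq comparison, 0 to 1 before RA, 1 to 2 after RA, 4 to 5 and 3 to 4 with RA in control and depleted cells, and 2 to 3 for the interaction. At this depth Cox8b had too few counts to be tested in any table.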

Other observations

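Genes that share a ZFP143 peak with a member were counted as its neighbours. Zmat5, which starts beside Uqcr10, was lower in all 8 comparisons with DMSO, with log2 changes of -3.73 and -3.85 in RNA-seq at 24 h and 72 h. Gabpa, beside Atp5j, was called in RNA-seq at 72 h (log2 -0.85), as was Atp5j, and neither was called in TT-seq. Other pairs did not change alike. Emc8, beside Cox4i1, had 114 and 119 CPM in DMSO cells and 64.3 and 65.1 at 72 h and was called, while Cox4i1 was not. Cbarp, beside Atp5d, was called higher with dTAG-V1 after RA (log2 1.16), while Atp5d was lower. Of the 7 neighbours tested in TT-seq, 1 was lower at each time, where 17%, 18.2% and 22.4% of all protein-coding genes with a peak were. Of the 5 tested in RNA-seq, 1, 1 and 3 were lower at 24 h, 48 h and 72 h, against 17.8%, 23.4% and 25.8%.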
